A study of Mus musculus with 16 samples.

Results

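Chemokines are small secreted proteins that steer white blood cells, and chemokine receptors are the G protein-coupled receptors that read them. The genes examined were all protein-coding genes of the GENCODE M21 mouse annotation whose symbol starts with Ccl, Ccr, Cxcl or Cxcr followed by a digit. The count table held 52 of them among 55414 genes: 23 CC ligands, 12 CXC ligands and 17 receptors. Those with at least 10 counts in at least 4 of the 16 libraries are described here, which left 27 genes: 13 CC ligands, 6 CXC ligands and 8 receptors.

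RNA came from kidney cortex of wild-type C57BL/6J male mice. Sedentary mice were compared with mice made to run on a treadmill for 40 minutes at 70% of capacity over 1 day (called 24 h), 1 week (1 wk) or 2 weeks (2 wk), with 4 libraries of polyadenylated RNA in each of the 4 groups. No label says in words that every library is its own mouse. Each library name holds a different number after the letter B, which is not explained and may mark an animal. The p-values here therefore describe variation among libraries, some of which may be technical. A letter in the sample titles, G for sedentary and F for all exercised libraries, is not explained, so its meaning cannot be told apart from exercise itself. The labels do not say how long after the last run the cortex was frozen, or whether 24 h means a day of running or the time after a run.

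The libraries held 39766260 to 66852397 counts. Markers of the labelled tissue were abundant in every library: 5 proximal tubule markers summed to 9368 to 13830 CPM (counts scaled to a common library size), and 3 podocyte markers to 147 to 255 CPM at 24 h, the group with the widest range. A few libraries stood apart in genes of other cell types. Replicate 1 at 24 h had the highest T cell and plasma cell marker sums (7.43 and 19.3 CPM), replicate 4 at 24 h the highest sum of tubular injury markers (42.03 CPM), and replicate 1 at 2 wk a fat marker sum of 17.5 CPM against at most 1.81 CPM in the other libraries. By a smaller margin, replicate 3 at 24 h had the highest endothelium sum (408 CPM). Next was sedentary replicate 1 with 387 CPM. The same 24 h library was highest in fibroblast and pericyte markers, with 154.5 CPM against 147 CPM in 24 h replicate 1.

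Ligands of this family are made by epithelium, endothelium, stroma and immune cells, are held on heparan sulfate at the cell surface, and form gradients. A receptor on a leukocyte couples to inhibitory G proteins, which activate phosphoinositide 3-kinase gamma and the actin machinery of movement. Inflammatory ligands such as Ccl2, Ccl5 and Cxcl10 are induced by NF-kB or interferon and recruit monocytes and T cells, whereas homeostatic ligands such as Cxcl12 and Ccl21a are made constantly. In the kidney, Ccl2 and its receptor Ccr2 are known for monocyte entry after injury, and Cxcl16 is known as a ligand of tubular epithelium that attracts cells bearing Cxcr6.

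After 2 wk of running, 3 receptors of monocytes and T cells stood 1.78 to 2.42 times lower than in sedentary cortex, by an unadjusted test. At 2 wk the unadjusted p was under 0.05, with lower expression, for 5 of the 25 members that could be tested (20%), among them the receptors Ccr2, Cxcr6 and Ccr1 and the ligand Cxcl16. The same rule took 3.24% of the 16126 genes tested. No member was higher at 2 wk by this rule, against 4.02% of all genes. With 1 library left out, the unadjusted edgeR p of Ccr1 was over 0.05 in 5 fits. For Ccr2, Cxcr6 and Cxcl16 it was over 0.05 in none. None of these differences passed an adjusted p of 0.05 in edgeR's quasi-likelihood test with Benjamini-Hochberg adjustment over all 16126 genes, and neither did any gene in this comparison (0%). DESeq2 and limma voom also took no member by adjusted p, and each took the same 5 members by unadjusted p.

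At 1 wk the same unadjusted rule took 3 members, all lower (Ccr2, Ccl6 and Cxcr6, 12% of members against 3.72% of all genes), and no member was higher (2.33% of all genes). At 24 h it took Cxcr3 as the only higher member (4% of members against 4.49% of all genes) and no lower member (4.43% of all genes), so the 24 h count lay at the background. By adjusted p no gene passed at 24 h or 1 wk (0% in each). These 3 comparisons share the sedentary libraries. The count at 1 wk was 1 without replicate 1 and 8 without replicate 3 of the 1 wk group. At 24 h it was 0 without sedentary replicate 2, sedentary replicate 4 or replicate 3 at 24 h, and 2 without sedentary replicate 1, sedentary replicate 3 or replicate 2 at 24 h. At 2 wk it stayed between 4 and 7 as each library was left out. For the fits with a library left out, the share of all genes was not counted.

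Directions were then counted over the 25 tested members, whatever their p. Against sedentary cortex, 18 had a positive log2 fold change at 24 h (median 0.27), 17 a negative one at 1 wk (median -0.27) and 19 a negative one at 2 wk (median -0.38), while the median over all genes stayed within 0.01 of 0 in each comparison. The 24 h median depended on single libraries. It was 0.04 without 24 h replicate 1, where 11 of 27 members tested were negative, and 0.09 without sedentary replicate 2. With limma voom it was 0.13. Over all alternatives the medians ran from -0.39 to -0.16 at 1 wk and from -0.41 to -0.15 at 2 wk. The 7 tested receptors had medians of -0.14, -0.54 and -0.83 at 24 h, 1 wk and 2 wk, and the 18 ligands 0.33, -0.09 and -0.19. All 7 receptors were negative at 1 wk and 6 of them at 2 wk, Cxcr4 being the exception. Ccl12 and Cxcr5 were too low to be tested, and a filter of this kind can favour genes that are high in at least 1 group.

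**Figure D1:**
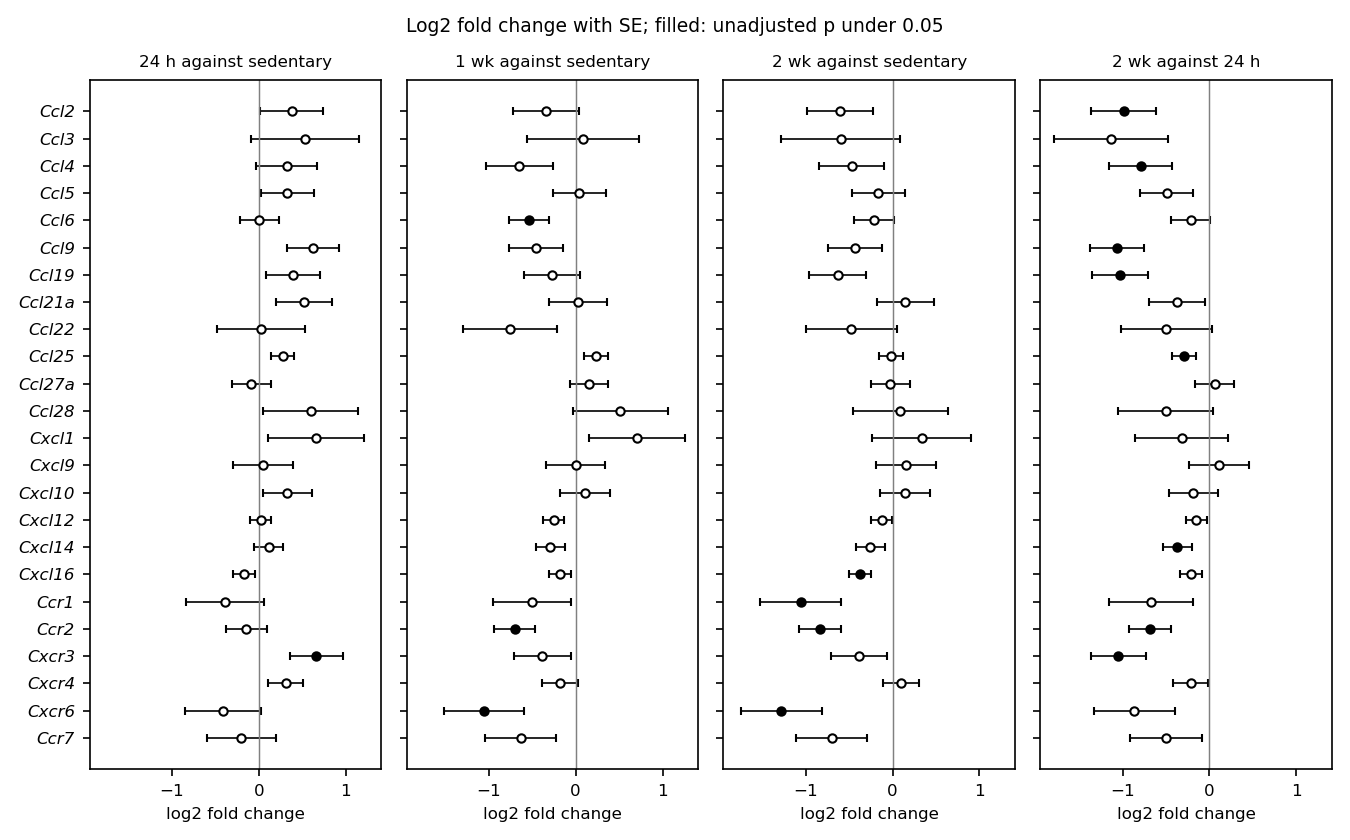
Log2 fold change with its standard error (horizontal axis) of 24 of the 25 tested chemokines and receptors (vertical axis) in 4 comparisons, from edgeR. Filled points have an unadjusted p under 0.05: Cxcr3 at 24 h, 3 genes at 1 wk, 4 at 2 wk and 8 for 2 wk against 24 h.

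Levels between genes were compared as CPM per kilobase of exon. On that scale 3 CXC ligands led: Cxcl16 with a mean of 17.01, Cxcl14 with 14.8 and Cxcl12 with 12.9 CPM per kb over the 16 libraries. The next were Ccl27a (2.19), Ccl28 (2.08), Ccl21a (1.91), Ccl6 (1.85) and Cxcr4 (1.57 CPM per kb), the highest of the receptors. Neighbours among the other 24 genes in this order overlapped in their ranges over libraries, and so did the leading 3 among themselves, whereas each of the 3 leading ligands was above every other member in every library. Counts of all 52 members summed to 8609 to 13251 per library, or 0.0194% to 0.0283% of all counts, and Cxcl12, Cxcl16 and Cxcl14 held 74.5% to 84.6% of these. The receptors together held 2.87% to 5.32% of the members' counts, so that their values rest on far fewer counts than those of the leading ligands.

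**Figure D2:**
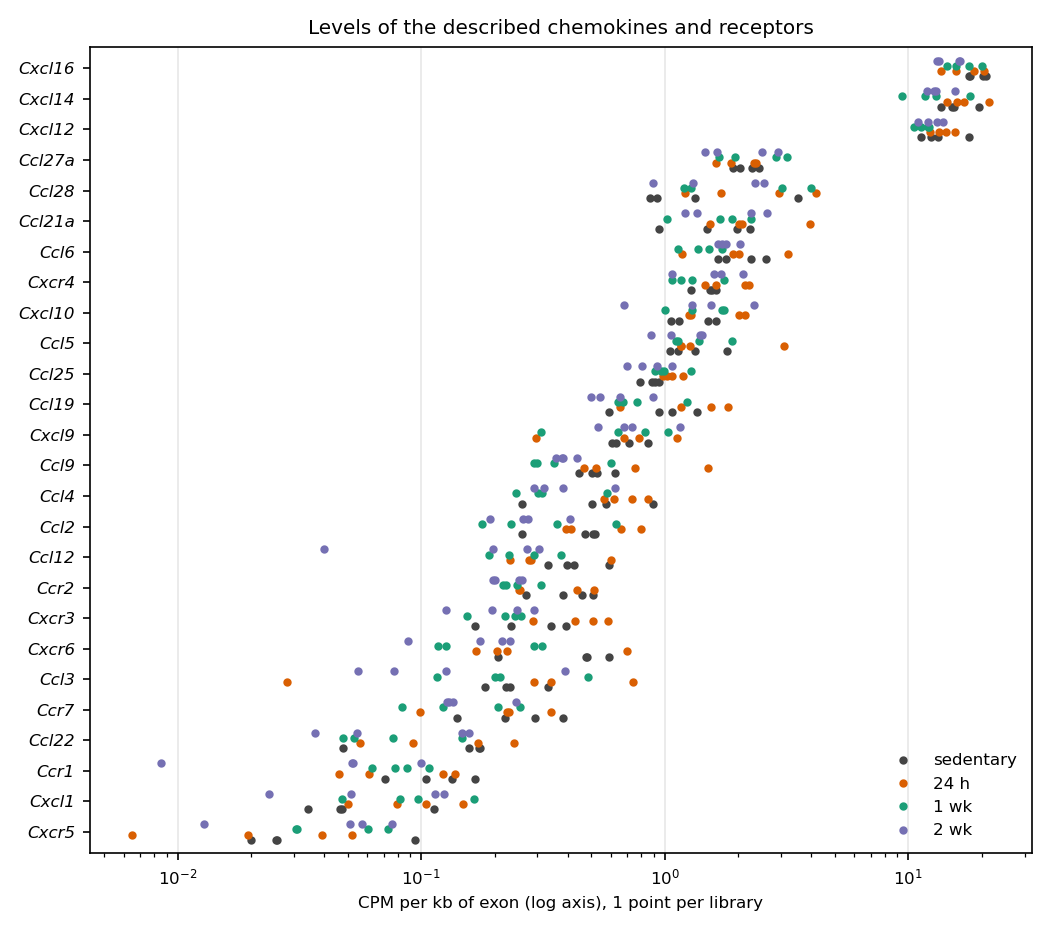
Level of 26 of the 27 described genes (vertical axis, in order of mean) in CPM per kb of exon on a log axis, with 1 point per library coloured by group. Cxcl16, Cxcl14 and Cxcl12 lie near or above 10 CPM per kb in all libraries and the other 23 genes at or below 4.19 CPM per kb.

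Cxcl12 is the homeostatic ligand of Cxcr4 and is made by stromal and endothelial cells. It was measured at 92.04, 108, 101 and 145 CPM in the sedentary libraries, 109.6, 117, 127 and 99.98 at 24 h, 91.8, 98.2, 99.2 and 86.1 at 1 wk and 98.5, 89.6, 108 and 113 at 2 wk. Sedentary replicate 4 was the highest of all, and every 1 wk library lay below every 24 h library. The share of all genes whose groups do not overlap was not counted, here or for the members below. The log2 fold change of 1 wk against 24 h was -0.27 ± 0.12 (SE; unadjusted p = 0.0347, edgeR adjusted p = 0.629), and against sedentary cortex it was -0.25 ± 0.12 at 1 wk and -0.13 ± 0.12 at 2 wk. The p against 24 h was over 0.05 on leaving out singly 24 h replicate 2 or 3, or 1 wk replicate 1 or 4 (up to 0.113). It was also over 0.05 with limma voom. Markers of endothelium were lower at 1 wk as well: their sum was 327 to 387 CPM in sedentary cortex, 281 to 408 at 24 h and 238 to 303 at 1 wk, and all 6 had an unadjusted p under 0.05 towards lower values at 1 wk against sedentary. In bulk tissue, fewer cells of a type and less RNA per cell cannot be told apart, and the part of the endothelium in the Cxcl12 values was not tested. The other receptor of Cxcl12, the scavenger Ackr3, averaged 67.9 ± 11.8 CPM (SD, n = 4) in sedentary cortex and 49.4 ± 7.56 CPM at 1 wk, a log2 fold change of -0.46 ± 0.14 (unadjusted p = 0.00348, edgeR adjusted p = 0.536). At 2 wk Ackr3 averaged 65.3 ± 10.1 CPM, a log2 fold change of -0.06 ± 0.14 against sedentary cortex.

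Cxcr4, which carries leukocytes and progenitor cells along Cxcl12, read 2.82, 2.31, 2.76 and 2.92 CPM in the sedentary libraries, 4.02, 2.93, 3.85 and 2.65 at 24 h, 2.11, 3.17, 2.35 and 1.94 at 1 wk and 3.804, 1.93, 3.06 and 2.88 at 2 wk. Its highest value, 4.02 CPM, was in replicate 1 at 24 h, and all groups overlapped. Set against 24 h, the 1 wk group had a log2 fold change of -0.49 ± 0.20 (unadjusted p = 0.0267, edgeR adjusted p = 0.574). Its p was over 0.05 on leaving out singly 24 h replicate 1 or 3, or 1 wk replicate 1 or 4 (up to 0.0911). For Cxcr4 it was also over 0.05 with limma voom, up to 0.165 over all alternatives. Against sedentary cortex its log2 fold change was 0.31 ± 0.20 at 24 h, -0.18 ± 0.21 at 1 wk and 0.10 ± 0.20 at 2 wk, none with an unadjusted p under 0.05.

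Cxcl14, a ligand of epithelium and stroma whose receptor is less settled, had values of 24.95, 27.5, 28.1 and 35.5 CPM in the sedentary libraries, 30.9, 26.3, 39.2 and 29.04 at 24 h, 23.6, 21.3, 32.6 and 17.2 at 1 wk and 23.3, 21.8, 23.8 and 28.3 at 2 wk. The 24 h library of replicate 3 was highest and the 1 wk library of replicate 4 lowest. Compared with 24 h, Cxcl14 had log2 fold changes of -0.41 ± 0.16 at 1 wk and -0.37 ± 0.16 at 2 wk (unadjusted p = 0.0234 and 0.0365, edgeR adjusted p = 0.559 and 0.501), and the groups overlapped. These p-values were over 0.05 at 1 wk on leaving out singly 24 h replicate 3, or 1 wk replicate 2 or 4 (up to 0.1103) and at 2 wk on leaving out singly 24 h replicate 1 or 3, or 2 wk replicate 1, 2 or 3 (up to 0.1604). At 2 wk the p was also over 0.05 with limma voom. Fibroblast and pericyte markers also differed between these groups: their sum was 103 to 155 CPM at 24 h, 78.8 to 101 at 1 wk and 76.4 to 108 at 2 wk. Against 24 h, 4 of the 5 were lower at 1 wk and 3 at 2 wk by an unadjusted p under 0.05, and their part in the Cxcl14 values was not tested.

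Cxcl16 is made as a membrane protein that binds Cxcr6-bearing T cells and is shed by the protease Adam10. It stood at 60.98, 54.4, 62.7 and 53.8 CPM in the sedentary libraries, 47.5, 41.03, 61.9 and 56.3 at 24 h, 47.5, 53.5, 60.8 and 43.4 at 1 wk and 40.4, 49.3, 48.7 and 39.8 at 2 wk. All 4 libraries at 2 wk lay below all 4 sedentary libraries, whereas 24 h and 1 wk overlapped with both. The mean was 57.97 ± 4.55 CPM in sedentary cortex and 44.6 ± 5.16 CPM at 2 wk (SD, n = 4 each), or 1.301-fold lower, with a log2 fold change of -0.38 ± 0.13 (unadjusted p = 0.00731, edgeR adjusted p = 0.446). The exons of Cxcl16 overlap those of Zmynd15 on the opposite strand, and 16.9% of the 50-base words of its transcripts also occur in that gene. If strand was not used in counting, its count from the overlap is uncertain.

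Cxcr6, the receptor of Cxcl16 on T cells and natural killer cells, gave 0.924, 0.4003, 1.14 and 0.917 CPM in the sedentary libraries, 1.35, 0.397, 0.435 and 0.323 at 24 h, 0.244, 0.227, 0.562 and 0.605 at 1 wk and 0.1696, 0.415, 0.338 and 0.448 at 2 wk. Replicate 1 at 24 h was the highest value, above the other 24 h libraries by a wide gap, and the lowest sedentary library (0.4003 CPM in replicate 2) overlapped with all exercised groups. The mean was 0.845 ± 0.314 CPM in sedentary cortex, 0.409 ± 0.202 at 1 wk and 0.343 ± 0.124 at 2 wk (SD, n = 4 each). That corresponds to 2.07-fold lower at 1 wk and 2.42-fold lower at 2 wk, with log2 fold changes of -1.05 ± 0.46 and -1.28 ± 0.46 (unadjusted p = 0.0335 and 0.0122, edgeR adjusted p = 0.7896 and 0.546). At 1 wk the unadjusted p was over 0.05 on leaving out singly sedentary replicate 1, 3 or 4, or 1 wk replicate 1 or 2 (up to 0.101). The 6 T cell markers summed to 4.27 to 4.72 CPM in sedentary cortex, 3.19 to 7.43 at 24 h, 3.28 to 4.08 at 1 wk and 3.28 to 3.71 at 2 wk. At 2 wk all 6 had negative log2 fold changes (median -0.35), none with an unadjusted p under 0.05, and their part in the Cxcr6 values was not tested.

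The genes of Cxcr6, Ccr1 and Ccr2 lie in 1 stretch of chromosome 9 (GRCm38, chr9:123806475-124113557, 307 kb from the outer end of Cxcr6 to that of Ccr2), a neighbourhood picked out after the values were seen. The stretch overlaps 8 annotated genes of the table, of which 5 could be tested. Cxcr6, Ccr1 and Ccr2 were already known to be lower at 2 wk by the unadjusted rule when the stretch was drawn. Their values therefore say nothing about the stretch as a whole. Xcr1, the receptor of cross-presenting dendritic cells, was the only other chemokine receptor gene tested in it. The unadjusted rule also took Xcr1 as lower at 2 wk, as it did 3.24% of all genes. Xcr1 averaged 0.4103 ± 0.135 CPM in sedentary cortex and 0.213 ± 0.0621 CPM at 2 wk (SD, n = 4 each; log2 fold change -0.91 ± 0.39). The remaining tested gene, Fyco1, is a broadly expressed vesicle transport gene that spans Cxcr6 on the other strand, and its log2 fold change at 2 wk was 0.10 ± 0.17 (unadjusted p = 0.572). Ccr3 and Ccr1l1 lie between these receptors and had 6 counts and 1 count over all libraries.

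The upstream sequence of Cxcr6 is shown as the example of a receptor from this stretch, since its annotated start falls at the end of the window. It is the 250 bases before the RefSeq start on GRCm38.p6, chr9:123806227-123806476, plus strand, and holds none of the 3 motifs searched, described with the Cxcl10 promoter.
Cxcr6: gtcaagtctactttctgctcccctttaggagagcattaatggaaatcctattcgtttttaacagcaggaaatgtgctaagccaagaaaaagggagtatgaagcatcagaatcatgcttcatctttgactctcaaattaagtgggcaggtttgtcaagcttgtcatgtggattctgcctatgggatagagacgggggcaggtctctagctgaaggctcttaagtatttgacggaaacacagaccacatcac

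Ccr2 draws classical monocytes out of bone marrow and into tissue. It was counted at 2.58, 1.82, 3.44 and 3.09 CPM in the sedentary libraries, 3.47, 1.71, 2.95 and 1.72 at 24 h, 1.46, 1.504, 2.09 and 1.67 at 1 wk and 1.36, 1.33, 1.71 and 1.75 at 2 wk. All 2 wk libraries were below all sedentary libraries, the 1 wk libraries overlapped only through sedentary replicate 2 and 1 wk replicate 3, and the 24 h libraries split into a higher pair (replicates 1 and 3) and a lower pair. Mean CPM was 2.73 ± 0.701 in sedentary cortex, 2.47 ± 0.891 at 24 h, 1.68 ± 0.288 at 1 wk and 1.54 ± 0.223 at 2 wk (SD, n = 4 each). Ccr2 was 1.63-fold lower at 1 wk and 1.78-fold lower at 2 wk than in sedentary cortex, with log2 fold changes of -0.70 ± 0.24 and -0.83 ± 0.24 (unadjusted p = 0.00862 and 0.00261, edgeR adjusted p = 0.658 and 0.374). Against 24 h the values were -0.56 ± 0.24 at 1 wk and -0.69 ± 0.24 at 2 wk (edgeR adjusted p = 0.6096 and 0.415). The unadjusted p against 24 h was over 0.05 at 1 wk on leaving out singly 24 h replicate 1 or 3, or 1 wk replicate 1, 2 or 4 (up to 0.1704) and at 2 wk on leaving out 24 h replicate 1 (0.0651). With limma voom it was over 0.05 at both times, and the highest p over all alternatives at 2 wk was 0.0931.

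Ccl2, the main monocyte attractant and the tested ligand of Ccr2, had no unadjusted p under 0.05 against sedentary cortex. It read 0.296, 0.578, 0.5904 and 0.533 CPM in the sedentary libraries, 0.448, 0.471, 0.912 and 0.753 at 24 h, 0.266, 0.412, 0.715 and 0.202 at 1 wk and 0.218, 0.311, 0.465 and 0.299 at 2 wk. Replicates 3 and 4 at 24 h were the highest of all libraries, and the groups overlapped. Its log2 fold change was 0.38 ± 0.36 at 24 h, -0.34 ± 0.38 at 1 wk and -0.61 ± 0.38 at 2 wk against sedentary cortex, and -0.99 ± 0.38 at 2 wk against 24 h (unadjusted p = 0.0165, edgeR adjusted p = 0.4503). The latter p was over 0.05 on leaving out 24 h replicate 3 (0.0686). Ccl12, a mouse ligand of the same receptor, reached 10 counts in 6 libraries and ranged from 0.0213 to 0.323 CPM, with group means of 0.234, 0.187, 0.146 and 0.109 CPM from sedentary to 2 wk. Ccl7, another ligand of Ccr2, and the related Ccl8 had at most 7 and 4 counts in any library.

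Ccr1, a receptor of monocytes and neutrophils, was low, with 0.296, 0.2002, 0.3796 and 0.469 CPM in the sedentary libraries, 0.131, 0.347, 0.391 and 0.172 at 24 h, 0.178, 0.247, 0.306 and 0.222 at 1 wk and 0.0242, 0.282, 0.148 and 0.149 at 2 wk. Replicate 1 at 2 wk held a single count, and the groups overlapped. The log2 fold change at 2 wk was -1.06 ± 0.46 against sedentary cortex, or 2.08-fold lower (unadjusted p = 0.0345, edgeR adjusted p = 0.644). Without 2 wk replicate 1 it was -0.75, and without sedentary replicate 4 it was -0.87. Its unadjusted p was over 0.05 on leaving out singly sedentary replicate 3 or 4, or 2 wk replicate 1, 3 or 4 (up to 0.106).

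**Figure D3:**
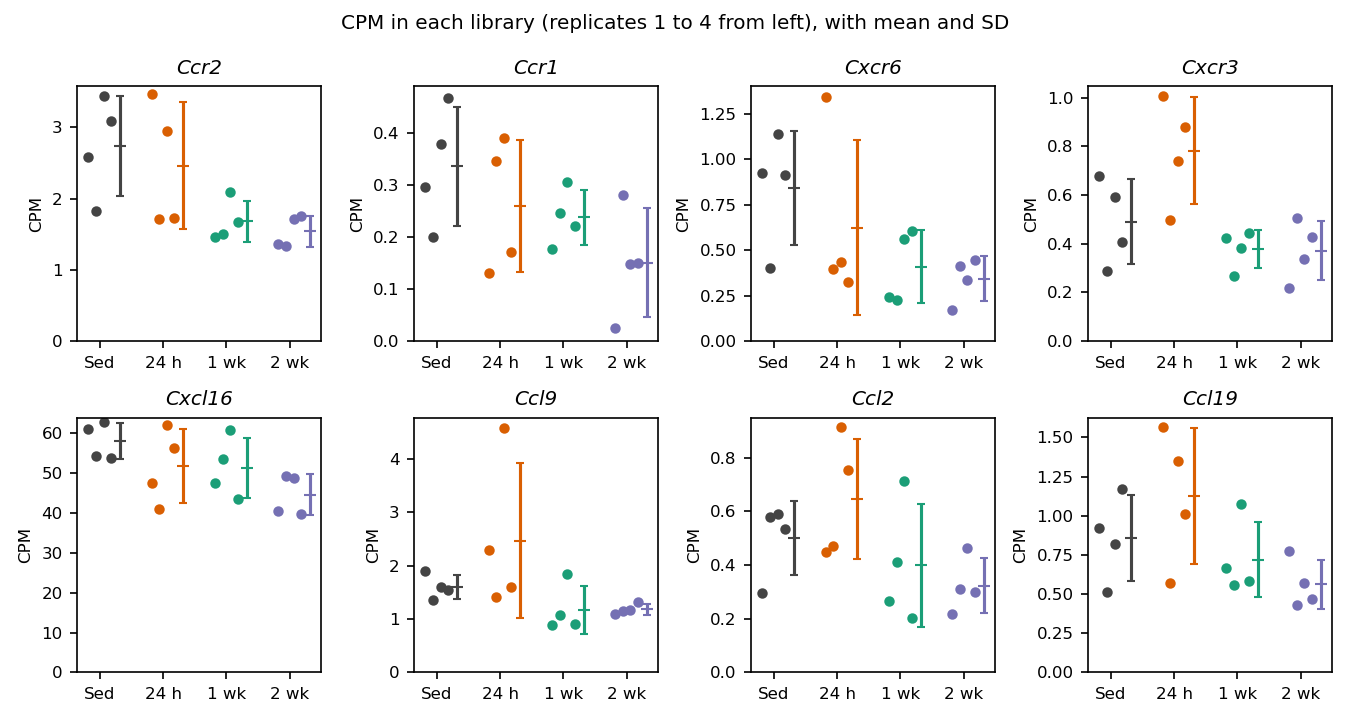
CPM (vertical axis) of 8 members in each library, replicates 1 to 4 from left within a group, with the mean and SD beside them. The 2 wk points of Ccr2 and Cxcl16 all lie below the sedentary points, and the highest Ccl9 point is replicate 3 at 24 h.

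Ccl3, Ccl4 and Ccl5, inflammatory ligands that attract T cells and macrophages, had no unadjusted p under 0.05 against sedentary cortex at any time. Ccl5, made by T cells and other immune cells, had 1.73, 1.09, 1.01 and 1.28 CPM in the sedentary libraries, 2.95, 1.12, 1.22 and 1.12 at 24 h, 1.09, 1.07, 1.81 and 1.33 at 1 wk and 1.02, 1.33, 0.845 and 1.37 at 2 wk. Replicate 1 at 24 h, the library with the highest T cell marker sum, was well above all others, and no comparison had an unadjusted p under 0.05 (log2 fold change -0.16 ± 0.31 at 2 wk against sedentary cortex). Ccl4, made by activated macrophages and T cells, gave 0.331, 0.378, 0.5904 and 0.171 CPM in the sedentary libraries, 0.486, 0.372, 0.565 and 0.409 at 24 h, 0.1997, 0.206, 0.383 and 0.161 at 1 wk and 0.412, 0.252, 0.211 and 0.192 at 2 wk. The 24 h libraries were the most even and the 1 wk libraries the lowest on average, with log2 fold changes against 24 h of -0.97 ± 0.38 at 1 wk and -0.79 ± 0.37 at 2 wk (unadjusted p = 0.0189 and 0.0436, edgeR adjusted p = 0.533 and 0.512). The unadjusted p of Ccl4 passed above 0.05 at 1 wk on leaving out singly 24 h replicate 3, or 1 wk replicate 4 (up to 0.0615) and at 2 wk on leaving out singly 24 h replicate 1 or 3, or 2 wk replicate 2, 3 or 4 (up to 0.109). Ccl3, its near relative, ranged from 0.0215 to 0.565 CPM, and its log2 fold changes against sedentary cortex, 0.54 ± 0.62, 0.09 ± 0.65 and -0.60 ± 0.69 in order of time, were within their errors.

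Ccl6 and Ccl9 are myeloid ligands of Ccr1 whose genes lie close together on chromosome 11 with Ccl3, Ccl4 and Ccl5. Ccl6 measured 2.98, 3.203, 4.05 and 4.69 CPM in the sedentary libraries, 3.62, 2.11, 5.78 and 3.42 at 24 h, 2.46, 2.72, 3.09 and 2.04 at 1 wk and 3.08, 2.96, 3.19 and 3.65 at 2 wk. Replicate 3 at 24 h was the highest library and replicate 4 at 1 wk the lowest. At 1 wk its log2 fold change was -0.54 ± 0.23 against sedentary cortex and -0.54 ± 0.23 against 24 h (unadjusted p = 0.0314 and 0.0302, edgeR adjusted p = 0.785 and 0.604), and without 24 h replicate 3 the latter was -0.25. For Ccl6 the unadjusted p was over 0.05 against sedentary cortex on leaving out singly sedentary replicate 3 or 4, or 1 wk replicate 1 or 4 (up to 0.121), and against 24 h on leaving out singly 24 h replicate 3, or 1 wk replicate 1 or 4 (up to 0.234). It was also over 0.05 in both comparisons with limma voom, and against 24 h in a fit of those groups alone.

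Ccl9 had 1.90, 1.36, 1.603 and 1.54 CPM in the sedentary libraries, 2.298, 1.41, 4.58 and 1.59 at 24 h, 0.887, 1.07, 1.84 and 0.907 at 1 wk and 1.09, 1.16, 1.16 and 1.32 at 2 wk. A single library, replicate 3 at 24 h, held 4.58 CPM and the remaining 15 libraries at most 2.298 CPM. The 2 wk libraries lay below all 24 h and all sedentary libraries. Ccl9 was 2.12-fold lower at 1 wk and 2.09-fold lower at 2 wk than at 24 h (log2 fold change -1.08 ± 0.31 and -1.06 ± 0.31, unadjusted p = 0.00245 and 0.00265, edgeR adjusted p = 0.323 and 0.366). Without 24 h replicate 3 the log2 fold changes were -0.60 and -0.58. At 2 wk against sedentary cortex the log2 fold change was -0.44 ± 0.31 (edgeR unadjusted p = 0.177). The gap between these groups was narrow, from at most 1.32 CPM at 2 wk to at least 1.36 CPM in sedentary cortex.

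Markers of dendritic cells and macrophages had mostly negative log2 fold changes beside these genes at 2 wk, monocyte markers were mixed, and the 3 tested neutrophil markers had positive values. The 5 dendritic cell markers, Xcr1 among them, summed to 4.203 to 6.51 CPM in sedentary cortex, 4.04 to 6.43 at 24 h, 2.596 to 4.19 at 1 wk and 2.303 to 3.22 at 2 wk. All 5 had negative log2 fold changes at 2 wk (median -0.83), 3 of them with an unadjusted p under 0.05. The 7 macrophage markers summed to 145 to 169 CPM in sedentary cortex and 132 to 157 at 2 wk, with 6 of 7 negative (median -0.27) and 1 with an unadjusted p under 0.05. The monocyte list without Ccr2 (Ly6c2, Plac8 and Chil3) summed to 10.4 to 11.6 CPM in sedentary cortex, 7.70 to 12.7 at 1 wk and 8.66 to 9.77 at 2 wk, a sum made up mostly of Plac8 (9.61 CPM on average). Of these 3 monocyte markers, 2 had negative values at 2 wk (median -0.28), none was lower and 1 was higher at an unadjusted p under 0.05. The 6 neutrophil markers summed to 0.715 to 2.11 CPM in sedentary cortex and 1.04 to 4.096 at 2 wk. No marker of the dendritic cell, macrophage and monocyte lists was at 0 in any library. The part of these cells in the Ccr2, Ccr1, Ccl6 and Ccl9 values was not tested.

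**Figure D4:**
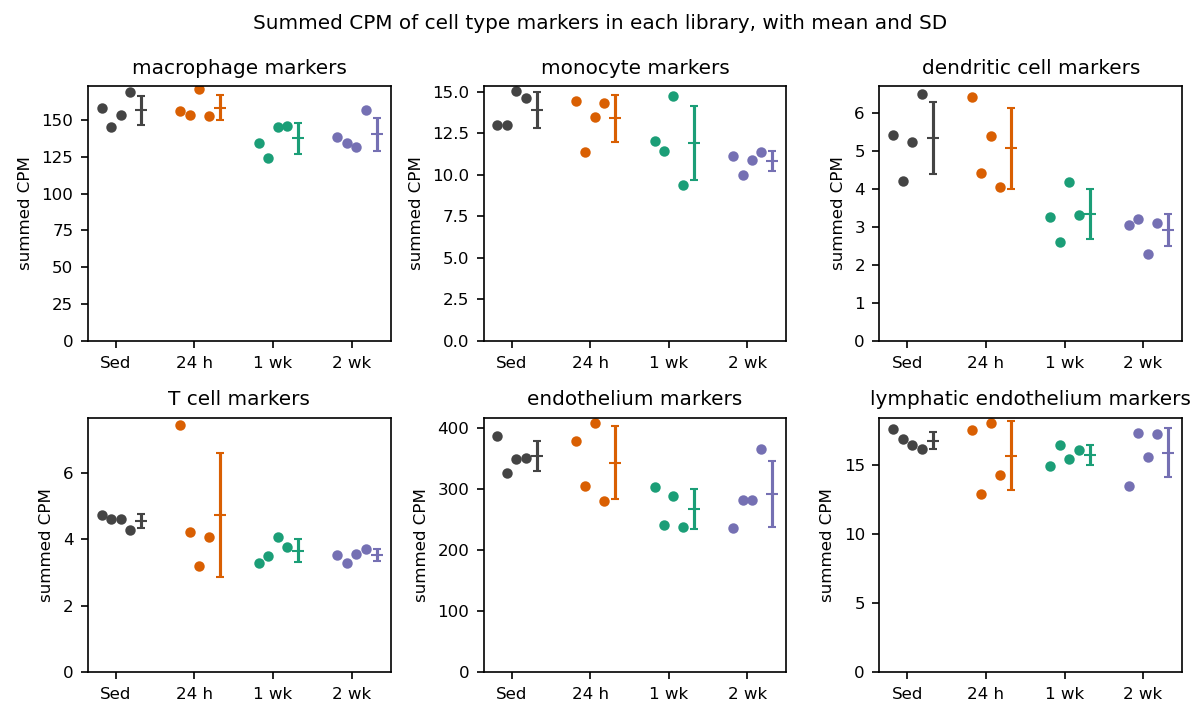
Summed CPM of cell type marker lists (vertical axis) in each library, replicates 1 to 4 from left within a group, with the mean and SD. The dendritic cell sums at 1 wk and 2 wk all lie below the sedentary sums, and the T cell sum of 24 h replicate 1 is the highest of its panel.

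Cxcr3, the receptor of activated T cells for Cxcl9 and Cxcl10, had the highest log2 fold change of the 25 tested members at 24 h against sedentary cortex. It read 0.6798, 0.289, 0.5904 and 0.405 CPM in the sedentary libraries, 1.01, 0.496, 0.739 and 0.882 at 24 h, 0.422, 0.268, 0.383 and 0.444 at 1 wk and 0.218, 0.504, 0.338 and 0.427 at 2 wk. All 24 h libraries were above all 1 wk libraries, and they overlapped with the sedentary and 2 wk libraries. Mean CPM was 0.491 ± 0.177 in sedentary cortex, 0.781 ± 0.220 at 24 h, 0.379 ± 0.0782 at 1 wk and 0.372 ± 0.123 at 2 wk (SD, n = 4 each). The 24 h level was 1.58-fold that of sedentary cortex (log2 fold change 0.66 ± 0.31, unadjusted p = 0.0441, edgeR adjusted p = 0.547). The unadjusted p was over 0.05 on leaving out singly sedentary replicate 2 or 4, or 24 h replicate 1, 3 or 4 (up to 0.142), and it was 0.0508 both in a fit of those groups alone and with a replicate block, under which Ccl25 was the member taken at 24 h. Without 24 h replicate 1 the member taken was Cxcr6, with a log2 fold change of -1.14. Cxcr3 was 2.07-fold lower at 1 wk and 2.07-fold lower at 2 wk than at 24 h (log2 fold change -1.05 ± 0.32 and -1.05 ± 0.32, edgeR adjusted p = 0.355 and 0.374). T cell markers at 24 h were not all higher: 4 of 6 had positive values (median 0.07 on the log2 scale) and none with an unadjusted p under 0.05.

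Its interferon-induced ligands had no unadjusted p under 0.05 in any comparison. Cxcl10 stood at 2.39, 3.67, 2.57 and 3.39 CPM in the sedentary libraries, 4.801, 2.88, 2.82 and 4.54 at 24 h, 2.26, 2.93, 3.93 and 3.87 at 1 wk and 3.49, 5.22, 2.92 and 1.54 at 2 wk. The 2 wk group held both the lowest and the highest library, and the log2 fold changes against sedentary cortex were 0.33 ± 0.29, 0.11 ± 0.29 and 0.14 ± 0.29 in order of time. Cxcl9 ranged from 0.891 to 3.47 CPM with group means between 2.11 and 2.34 CPM. Exons of Cxcl10 overlap those of Art3 on the opposite strand, and 3.59% of the 50-base words of its transcripts also occur in that gene. If strand was not used in counting, that part of its reads is uncertain.

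Promoters were searched on both strands in the 250 bases before each RefSeq start (GRCm38.p6), where 20 of the 27 described members matched: 15 ligands and 5 receptors. The NF-kB motif, GGGA and TTCC with any 2 bases between them, was found in Cxcl1 and Cxcl10, against 1.21% of all 32851 promoters. The interferon-stimulated element, GAAA repeated after any 2 bases, was found in Ccl19, Cxcl10 and Cxcl14 (2.98% of all), and TATAAA in Ccl12, Ccl9, Cxcl9 and Cxcr4 (12.4% of all). Cxcl10, whose window held the NF-kB and the interferon motif, is shown beside Ccl9, which had the smallest p of the ligands between exercised groups. The Cxcl10 window is chr5:92348890-92349139 and the Ccl9 window chr11:83578637-83578886, both on the minus strand, written 5′ to 3′ with the motifs in capitals.
Cxcl10: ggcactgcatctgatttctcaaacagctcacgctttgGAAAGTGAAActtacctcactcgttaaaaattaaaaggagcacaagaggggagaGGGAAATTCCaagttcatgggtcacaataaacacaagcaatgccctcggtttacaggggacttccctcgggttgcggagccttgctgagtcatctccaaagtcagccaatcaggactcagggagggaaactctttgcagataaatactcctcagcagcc
Ccl9: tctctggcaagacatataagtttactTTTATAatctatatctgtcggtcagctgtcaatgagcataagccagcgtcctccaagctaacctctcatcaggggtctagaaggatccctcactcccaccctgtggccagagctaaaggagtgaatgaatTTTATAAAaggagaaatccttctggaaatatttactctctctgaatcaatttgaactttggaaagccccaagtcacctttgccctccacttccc
In Cxcl10 the capitals mark GAAAGTGAAA beginning 213 bases and GGGAAATTCC beginning 159 bases before the start. In Ccl9 they mark the TATAAA matches, on the printed strand 92 bases before the start and on the other strand 94 and 224 bases before it, the matches at 92 and 94 overlapping. These are matches of letters, and no factor was measured at them.

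Ccl19 and Ccl21a guide dendritic cells and naive T cells through Ccr7 to lymphoid tissue. Ccl19 gave 0.924, 0.512, 0.822 and 1.17 CPM in the sedentary libraries, 1.57, 0.5702, 1.35 and 1.01 at 24 h, 0.666, 0.556, 1.07 and 0.585 at 1 wk and 0.775, 0.4298, 0.5704 and 0.469 at 2 wk. The 2 wk libraries were low with the exception of replicate 1, and the 24 h group held the highest pair. Compared with 24 h, Ccl19 was 2.04-fold lower at 2 wk (log2 fold change -1.03 ± 0.32, unadjusted p = 0.00499, edgeR adjusted p = 0.384), and against sedentary cortex the value was -0.63 ± 0.33. Near-identical copies limit this gene: 52.0% of the 50-base words in its transcripts also occur in other annotated genes, such as Gm2564.

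Ccl21a, made by lymphatic endothelium, showed 1.73, 0.823, 1.94 and 1.301 CPM in the sedentary libraries, 1.76, 1.34, 3.43 and 1.81 at 24 h, 1.64, 1.46, 1.97 and 0.887 at 1 wk and 1.96, 1.05, 1.18 and 2.28 at 2 wk. Replicate 3 at 24 h was highest, the groups overlapped, and no comparison had an unadjusted p under 0.05 (log2 fold change 0.52 ± 0.33 at 24 h against sedentary cortex). Its transcripts share 71.6% of their 50-base words with Gm21541, Gm13304, Ccl21b and Gm10591, and Ccl21b itself had no count, so the level may hold reads of these copies or lack reads that matched several. The 5 lymphatic endothelium markers summed to 16.2 to 17.6 CPM in sedentary cortex and 13.5 to 17.3 CPM at 2 wk, of which Lyve1 contributed 27 counts over all libraries.

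Ccr7 itself had 0.436, 0.578, 0.759 and 0.277 CPM in the sedentary libraries, 0.673, 0.446, 0.196 and 0.452 at 24 h, 0.244, 0.165, 0.408 and 0.504 at 1 wk and 0.267, 0.252, 0.486 and 0.256 at 2 wk. All groups overlapped. Its log2 fold change was -0.63 ± 0.41 at 1 wk and -0.70 ± 0.41 at 2 wk against sedentary cortex, neither with an unadjusted p under 0.05 in edgeR. With limma voom the unadjusted p of Ccr7 was under 0.05 at 1 wk. The B cell pair Cxcl13 and Cxcr5 sat at the edge of the count minimum. Cxcr5 reached 10 counts in exactly 4 libraries and ranged from 0.0217 to 0.314 CPM, with exons overlapping Bcl9l on the opposite strand, while Cxcl13 reached them in 3 libraries, with 23 counts at most, and was not described further.

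Cxcl1, a neutrophil attractant of the tubule and endothelium, was scarce, at 0.0872, 0.08896, 0.211 and 0.06399 CPM in the sedentary libraries, 0.0934, 0.149, 0.196 and 0.2796 at 24 h, 0.0887, 0.309, 0.153 and 0.181 at 1 wk and 0.0969, 0.0445, 0.232 and 0.213 at 2 wk. The groups overlapped, and its log2 fold changes against sedentary cortex were 0.65 ± 0.55, 0.71 ± 0.55 and 0.33 ± 0.57 in order of time, none with an unadjusted p under 0.05 in edgeR. With limma voom Cxcl1 had an unadjusted p under 0.05 at 1 wk. Its receptor Cxcr2 had at most 11 counts in any library, and the related ligands Cxcl2, Cxcl3 and Cxcl5 at most 6. Of 6 neutrophil markers, Mpo had 2 counts and Ly6g 1 count over the 16 libraries, while S100a9, Csf3r and S100a8 had 572, 353 and 253 counts and were at 0 in no library. The 3 markers that could be tested had positive log2 fold changes against sedentary cortex at each time (medians 0.36, 0.27 and 0.55), none with an unadjusted p under 0.05.

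Ccl25, known as the ligand of Ccr9 in thymus and gut, read 6.82, 6.58, 7.02 and 5.89 CPM in the sedentary libraries, 7.32, 8.01, 8.86 and 7.64 at 24 h, 7.37, 7.19, 9.57 and 6.79 at 1 wk and 7.996, 5.19, 6.89 and 5.995 at 2 wk. All 24 h libraries lay above all sedentary libraries, from a mean of 6.58 ± 0.494 to 7.96 ± 0.666 CPM (SD, n = 4 each; log2 fold change 0.27 ± 0.14, unadjusted p = 0.05997, edgeR adjusted p = 0.574). At 2 wk against 24 h the log2 fold change was -0.29 ± 0.14 (unadjusted p = 0.0466, edgeR adjusted p = 0.519), with an unadjusted p over 0.05 on leaving out singly 24 h replicate 2, 3 or 4, or 2 wk replicate 2 or 4 (up to 0.168). In a fit of those groups alone this p was also over 0.05. Ccl25 shares exon sequence with Elavl1 on the opposite strand, and Ccr9 had 10 or more counts in 2 libraries only.

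Ccl28, a ligand of mucosal epithelium for Ccr10, varied more between libraries than between groups. Its values were 4.48, 6.45, 17.04 and 4.22 CPM in the sedentary libraries, 8.22, 14.3, 5.84 and 20.3 at 24 h, 6.23, 5.81, 14.6 and 19.3 at 1 wk and 12.4, 4.33, 11.4 and 6.32 at 2 wk. High libraries occurred in every group (sedentary replicate 3, 24 h replicate 4 and 1 wk replicate 4 among them), and the share of all member counts ranged from 1.53% to 9.79%. The SD was 75.5% of the mean in sedentary cortex and 45.4% at 2 wk, and the log2 fold change against sedentary cortex was 0.60 ± 0.55 at 24 h. Ccl27a, its relative in skin, had 4.52, 5.43, 5.799 and 4.84 CPM in the sedentary libraries, 3.85, 4.44, 5.61 and 5.51 at 24 h, 4.64, 6.799, 7.56 and 3.97 at 1 wk and 3.901, 3.47, 6.91 and 5.97 at 2 wk, with overlapping groups and no comparison at an unadjusted p under 0.05. It shares 45.0% of its 50-base words with copies such as Ccl27b, which had no count, and overlaps Il11ra1 on the opposite strand. Ccl22, a dendritic cell ligand of Ccr4, ranged from 0.0853 to 0.5604 CPM, and its log2 fold change was -0.75 ± 0.54 at 1 wk against sedentary cortex.

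Between the exercised groups, the members that met the unadjusted rule against 24 h were all lower at the later time. At 1 wk against 24 h the unadjusted rule took 8 of 25 members, all lower (32% against 4.72% of all genes): Ccl9, Cxcr3, Ccl4, Cxcl14, Cxcr4, Ccl6, Ccr2 and Cxcl12. At 2 wk against 24 h it took 9, all lower (36% against 4.32%), among them Ccl9, Cxcr3, Ccl19, Ccr2, Ccl2, Cxcl14, Ccl4 and Ccl25. In each of these, 23 of 25 members had a negative log2 fold change, with medians of -0.45 and -0.50 against 0.01 over all genes. The adjusted p passed 0.05 for no gene at 1 wk (0%) and for 2 genes, neither a member, at 2 wk (0.0124%). Both comparisons rest on the same 24 h libraries: without 24 h replicate 3 the counts were 2 and 4, and without 24 h replicate 1 they were 7 and 5. The 1 wk count was also 2 without 1 wk replicate 4 and 4 without 1 wk replicate 1. With limma voom the 1 wk count was 4 (Ccl4, Ccl9, Cxcl14 and Cxcr3). The 2 wk count with voom was 6 (Ccl19, Ccl2, Ccl25, Ccl4, Ccl9 and Cxcr3). Under these alternatives the share of all genes was not counted. Ccl9 and Cxcr3 kept an unadjusted p under 0.05 in both comparisons under every alternative in which they were tested. Markers of several cell types differed from 24 h in the same comparisons. At an unadjusted p under 0.05, 5 of 7 macrophage, 5 of 6 endothelium and 2 of 5 dendritic cell markers were lower at 1 wk. So were 2 of 3 plasma cell, 1 of 4 tubular injury and 4 of 5 fibroblast and pericyte markers, against 4.72% of all genes. At 2 wk these were 4 of 7, 1 of 6, 2 of 5, 2 of 3, 3 of 4 and 3 of 5, against 4.32% of all genes. Of the 6 T cell markers, 1 was lower at 1 wk and none at 2 wk. Other markers were higher at 2 wk than at 24 h by the same rule, against 5.29% of all genes. These were 2 of 5 proximal tubule, 2 of 4 erythroid and platelet and 1 of 2 distal tubule markers. So were 1 of 3 intercalated cell markers, 1 of 5 B cell markers and the 1 tested fat marker. By the same rule, 2 plasma cell, 2 tubular injury, 2 fibroblast and pericyte and 1 macrophage marker were higher at 24 h than in sedentary cortex. No endothelium or dendritic cell marker was, against 4.49% of all genes. The part of these cells in the members' values was not tested.

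Between 2 wk and 1 wk no member had an unadjusted p under 0.05 in edgeR, against 4.58% of all genes, and none had an adjusted one (0% of all genes). DESeq2 likewise took no member at the unadjusted threshold and limma voom took 1, Cxcl16. The count was 1 without 1 wk replicate 2, 2 wk replicate 1 or 2 wk replicate 2, and 2 without 1 wk replicate 4. A test of all 4 groups together took 5 members at an unadjusted p under 0.05 (20% against 8.73% of all genes): Ccr2, Ccl9, Cxcr3, Ccl19 and Cxcr6. The edgeR adjusted p was 0.355 for Ccr2 and Ccl9, 0.393 for Cxcr3, 0.512 for Ccl19 and 0.554 for Cxcr6, while 2 other genes passed the adjusted threshold (0.0124%). Without 24 h replicate 1 this count was 3, without 24 h replicate 2 it was 9, and without 1 wk replicate 3 it was 10. The matching shares of all genes with a library left out were not counted.

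Other genes of the chemokine family outside the symbol rule were read from a list of 12, of which 11 could be tested. At 24 h 1 was higher and none lower at an unadjusted p under 0.05, at 1 wk none was higher and 3 lower, and at 2 wk 1 was higher and 1 lower. The genes at 1 wk were Ackr3, the Cxcl12 scavenger, Ccrl2, an atypical receptor of myeloid cells and endothelium (log2 fold change -0.57 ± 0.20), and Ackr2, a scavenger of CC ligands (-1.16 ± 0.48). Ackr4, which scavenges Ccl19, Ccl21a and Ccl25, was the higher gene at 24 h (0.77 ± 0.33), and the platelet chemokine Ppbp the higher gene at 2 wk (1.03 ± 0.38). Markers of red cells and platelets, Ppbp among them, summed to 265 to 459.9 CPM in sedentary cortex and 510.4 to 1248 CPM at 2 wk, and their part in the Ppbp value was not tested. For comparison, the share of all genes taken by the unadjusted rule was 4.43% lower and 4.49% higher at 24 h, 3.72% and 2.33% at 1 wk and 3.24% and 4.02% at 2 wk, so that 1 call in a list of this size, or of those that follow, lies near the background. Over the 11 genes the median log2 fold change was -0.08 at 24 h, -0.39 at 1 wk and -0.06 at 2 wk.

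Downstream of the receptors, 20 signalling genes were tested. None passed the unadjusted threshold at 24 h, 4 were lower at 1 wk, and at 2 wk 3 were lower and 1 higher. At 1 wk these were Pik3cg, the catalytic subunit of phosphoinositide 3-kinase gamma (log2 fold change -0.89 ± 0.28), its regulatory subunit Pik3r5 (-0.87 ± 0.37), the G protein subunit Gng2 (-0.51 ± 0.19) and the kinase Lyn (-0.22 ± 0.10). The lower genes at 2 wk included the exchange factor Vav1 (-0.71 ± 0.30) and Gng2 (-0.45 ± 0.18), and the G protein regulator Rgs2 was higher (0.34 ± 0.15). The list's median log2 fold change was 0.03 at 24 h, -0.16 at 1 wk and -0.05 at 2 wk.

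Of 10 genes that process or present chemokines, 1 was lower at 24 h, 2 were lower and 1 higher at 1 wk, and none passed at 2 wk. The protease Dpp4, which trims Cxcl12 and Cxcl10 at their amino end, averaged 57.8 ± 2.76 CPM in sedentary cortex and 48.6 ± 1.01 CPM at 24 h (SD, n = 4 each), a log2 fold change of -0.25 ± 0.07 (unadjusted p = 0.002899). At 1 wk the proteoglycan Hspg2 (log2 fold change -0.29 ± 0.13) and the protease Mmp2 (-0.46 ± 0.21) were lower, and Ext1, which builds heparan sulfate, was higher (0.17 ± 0.07). The medians of this list were -0.04, -0.03 and 0.01 at 24 h, 1 wk and 2 wk.

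Among 14 tested genes of the NF-kB pathway and its inducers, 1 was higher at 24 h, 3 were lower at 1 wk and none passed at 2 wk. Relb was the gene at 24 h (log2 fold change 0.41 ± 0.14), and Nfkbiz (-0.54 ± 0.22), the adhesion molecule Vcam1 (-0.43 ± 0.18) and the inhibitor Tnfaip3 (-0.35 ± 0.16) were those at 1 wk. Of 14 genes of the interferon-gamma axis, none passed at 24 h or 1 wk, and the receptor chain Ifngr2 was lower at 2 wk (-0.24 ± 0.11). The medians at 24 h, 1 wk and 2 wk were 0.07, -0.04 and -0.03 for the NF-kB list and -0.02, -0.18 and -0.0043 for the interferon-gamma list. No gene of these 5 lists passed the adjusted threshold in edgeR in any of the comparisons.

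The remaining 25 members fell below the count minimum. Ccl21b, Ccl26, Ccl27b and Cxcl3 had no count in any library. Beside the genes already named, the eotaxin Ccl11 reached at most 12 counts in a library, and Ccl17, Ccl24, Ccl20, Ccr10, Cxcl17, Ccr4, Ccr6, Ccl1, Ccr8, Cxcr1 and Cxcl15 at most 8 each. Just inside the minimum were Cxcr5, with 10 counts in 4 libraries, and Ccl3 and Cxcl1, each in 5 libraries, and just outside it Cxcl13, in 3 libraries. The genes outside were not tested.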

How the data were processed

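The authors' deposited table held unnormalized counts per gene. The submitters' processing notes name FastQC 0.10.1, HTSeq 0.10.0 and the build GRCm38 (mm10). The libraries were made with a stranded mRNA kit, per the labels' protocols. The sources used here do not give the aligner, the annotation or whether counting used strand. Of 24 count columns, 8 match no sample and were not used. Symbols, coordinates and exon lengths came from GENCODE M21, which names 52081 of 55414 IDs (94.0%).

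Genes were filtered by group with filterByExpr, leaving 16126, and all 16 libraries entered 1 fit of edgeR 4.0.16 in R 4.3.3 (TMM factors 0.947 to 1.05, robust quasi-likelihood F-test, Benjamini-Hochberg adjustment over all genes). CPM are TMM-scaled. The standard error is the log2 fold change divided by the root of F. The fit was tested on simulated data. Libraries of a group differed by more than counting noise (chi-square per degree of freedom 7.88 to 120). Alternatives were other size factors and filters, DESeq2 1.42.0, limma 3.58.1 voom with quality weights, a fit of the groups compared alone, a replicate block and leaving out each library.

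The members and gene lists were chosen with earlier results of these data known. Values in every library are given for the 6 highest members per kb, members with an unadjusted p under 0.05 in any comparison, and a set of well-known ligand and receptor pairs. Results for 1 described member and 1 listed gene enter the counts but are not reported here. Promoters came from RefSeq on GRCm38.p6.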

Additional observations from a re-analysis of the deposited data

Results flagged for a closer look

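In 7 of 108 groups of 4 libraries, each a member in a group, 1 library lay far from the other 3: its gap to the nearest, as a share of the group's range, was over Dixon's critical value. Chance alone gives this in about 1 in 20 groups, so the number of such groups is near what chance gives. At 24 h, replicate 1 was high for Ccl5 (2.95 CPM) and for Cxcr6 (1.35 CPM), and the same library had the highest T cell marker sum (7.43 CPM). Also at 24 h, replicate 4 was high for Ccl12 (0.323 CPM). In sedentary cortex, replicate 1 was high for Cxcr5 (0.314 CPM), replicate 2 was low for Ccl22 (0.111 CPM) and replicate 3 was high for Cxcl1 (0.211 CPM). At 2 wk, replicate 3 was high for Ccr7 (0.486 CPM).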

How the results depend on the processing

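No member passed an adjusted p of 0.05 under any alternative. Moves in the counts of members with an unadjusted p under 0.05 included the following. At 24 h against sedentary, 1 member became 2 with DESeq2 size factors, without a filter on low counts or with DESeq2, 3 with voom and 0 with the filter of at least 1 CPM in 4 libraries. At 1 wk against sedentary, 3 became 2 with that filter and 4 without a filter. With voom that count was also 4 (Ccr2, Ccr7, Cxcl1 and Cxcr6), 1 of them higher. At 2 wk against sedentary, 5 became 3 with the stricter filter, which dropped Cxcr6 and Ccr1 from the test. It became 7 without a filter or in a fit of those groups alone. At 1 wk against 24 h, 8 became 4 with voom, and at 2 wk against 1 wk, 0 became 1 with voom. At 2 wk against 24 h, 9 became 6 with voom or the stricter filter. For all 4 groups together, 5 became 8 without a filter and 3 with the stricter filter. When each library was left out in turn, the counts ranged from 0 to 2 at 24 h, 1 to 8 at 1 wk and 4 to 7 at 2 wk against sedentary, 2 to 11 for 1 wk and 4 to 10 for 2 wk against 24 h, 0 to 2 for 2 wk against 1 wk, and 3 to 10 for all 4 groups. The number of members tested also differed, for instance 16 with the stricter filter and 27 without a filter. For no alternative, the replicate block included, was the share of all genes counted. A move in a member count can therefore not be set against a move over all genes. The causes were not tested. All 381 refits of the 26 log2 fold changes with an unadjusted p under 0.05 kept their direction, and the 108 group levels from raw totals moved by less than 1 SD. Neither result is a strong check. The 26 were chosen for a small p in the same data, and the refits reuse all or most of the libraries. A change of direction was thus unlikely beforehand. With TMM factors of 0.947 to 1.05, raw totals could move the levels only little.

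With the replicate number as a block, the counts were 1, 3 and 6 against sedentary in order of time, 10 and 9 against 24 h, 0 for 2 wk against 1 wk and 9 for all 4 groups. No label says that a number marks a shared animal or day, and the libraries were not treated as paired: correlations of deviations ran from -0.239 to 0.375 over 24 same-number pairs, 8 of them over 0.1, and 5 of 16 libraries correlated best with their own number. Of these 5, 4 were the replicate 3 libraries, whose mean correlation with each other was 0.16 to 0.26, a hint from the data and not from the design. With the block, Ccl25 took the place of Cxcr3 at 24 h.

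The described receptors other than Cxcr4 had at most 186 counts in a library, which limits the size of difference that can be detected.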
